A study of Mus musculus with 4 samples.

Results

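The genes described here were 10 members of the bone morphogenetic protein (BMP) pathway, found by their symbols among the 32479 genes of the count tables. They comprised the ligands Bmp2, Bmp4 and Bmp6, the secreted antagonists Fst (follistatin), Sostdc1 (sclerostin domain containing 1) and Grem1 (gremlin 1), and the Id genes Id1, Id2, Id3 and Id4. Single-cell RNA was measured with BD Rhapsody, a microwell capture method, in the dorsal epidermis of 4 female C57BL/6N mice at postnatal day 19. By the study's methods the cells carried sample tags for multiplexing, and 1 count table was given per mouse. The samples were titled WT for the 2 control mice and Cers4epi-/- for the 2 others. By the study's methods controls were CerS4fl/fl K14Cre- and CerS4epi-/- mice CerS4fl/fl K14Cre+. All 4 mice thus carried floxed alleles of ceramide synthase 4 (Cers4). The keratin 14 promoter drives the Cre recombinase in keratinocytes of the epidermis and the follicle, and T cells and Langerhans cells lie outside this lineage. The question was which members differed between the genotypes in cells of the bulge, the infundibulum and the interfollicular epidermis (IFE).

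The count tables held 39231945 to 53106317 counts in all. A barcode was taken as a cell where it held 1200 or more counts, no more than 20% of them mitochondrial, which left 8480 and 9086 control cells and 9017 and 7567 CerS4epi-/- cells, with a median of 3266 to 3884 counts per cell. The median mitochondrial share of these cells was 8.66% and 8.56% in the control mice and 9.95% and 9.68% in the CerS4epi-/- mice. The targeted gene is most abundant in sebaceous gland cells. In the 78 sebaceous gland-like cells Cers4 stood at 2876 and 2373 counts per 1000000 counts (CPM) in the control mice and at 293 and 433 CPM in the CerS4epi-/- mice. Cells of the same genotype shared 0 barcodes between mice, whereas cells of unlike genotype shared 64 to 102 barcodes, near the 72.5 to 92.6 that separate captures from 884736 possible barcodes would give. The capture run of each mouse was not stated, and it is inferred here from the shared barcodes only. If the mice of each genotype were captured together and apart from the other genotype, the capture run and the genotype cannot be told apart.

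BMP ligands are secreted and bind receptor kinases that phosphorylate Smad1 and Smad5, which enter the nucleus with Smad4 and switch on target genes. The Id genes are among the most direct of these targets, and their proteins hold back transcription factors of the helix-loop-helix family by binding to their partners. Antagonists take up ligands outside the cell. In skin, BMP signals are known to keep hair follicle stem cells quiescent and to favour differentiation of keratinocytes, and the inner bulge layer is a known source of BMP ligands.

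In the GRCm39 assembly, the genome the counts refer to, Bmp2 lies on chromosome 2 (133394079 to 133404816), Bmp4 on chromosome 14 (46620250 to 46636745) and Bmp6 on chromosome 13 (38529065 to 38684280). Fst lies on chromosome 13 (114588731 to 114595521), Sostdc1 on chromosome 12 (36364137 to 36368451) and Grem1 on chromosome 2 (113576509 to 113589000). Id1 lies on chromosome 2 (152566218 to 152579544), Id2 on chromosome 12 (25143798 to 25147282), Id3 on chromosome 4 (135870808 to 135873066) and Id4 on chromosome 13 (48414558 to 48419502). RefSeq promoter windows were matched for 6 of the 10 members. The part outside annotated exons is given for 2 of them: Id4, a target gene that moved in opposite directions in the infundibulum and the IFE, and Bmp4, a ligand that fell in basal cells. Both are written 5′ to 3′ on the strand of the gene, in the GRCm38.p6 assembly. Capitals mark GGCGCC, a GC-rich element that BMP-activated Smads are known to bind. The Id4 window is chr13:48260866-48261081 on the plus strand, and the Bmp4 window is chr14:46390670-46390919 on the minus strand.
Id4: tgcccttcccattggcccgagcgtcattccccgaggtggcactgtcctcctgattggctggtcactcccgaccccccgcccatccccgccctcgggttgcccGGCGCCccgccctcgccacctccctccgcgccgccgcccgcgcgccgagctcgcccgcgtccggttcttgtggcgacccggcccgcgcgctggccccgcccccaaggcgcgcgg
Bmp4: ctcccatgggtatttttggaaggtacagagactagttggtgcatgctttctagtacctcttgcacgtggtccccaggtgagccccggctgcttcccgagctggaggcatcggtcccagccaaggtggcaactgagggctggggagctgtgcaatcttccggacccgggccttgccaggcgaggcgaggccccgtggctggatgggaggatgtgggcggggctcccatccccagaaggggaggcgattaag
The windows differ in their place. The Id4 window of 250 bases ran 34 bases past the gene start annotated in GRCm39, and those bases are not printed. The Bmp4 window ended 8619 bases past the annotated start, inside the gene, so it is not the promoter of that start. The window of Grem1, which ran 7 bases past its gene start, held 1 GGCGCC and is not printed, since Grem1 was too low to compare. GGCGCC occurred 1 time in the Id4 window and 0 times in the Bmp4 window. It is its own reverse complement, so both strands were read at once, and 9.59% of the 32851 RefSeq windows of 250 bases held it.

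Cells were clustered without the members and without a list of 56 other genes of the pathway, and the clusters were named from marker genes. The bulge-like class held only inner bulge-like cells, led by Krt75, with 65 and 57 control cells and 36 and 33 CerS4epi-/- cells. The infundibulum-like class held 1101 and 838 control and 1968 and 1770 CerS4epi-/- cells. It was made up of Krt79-high cells, of a Slurp1-led cluster and of a cluster led by Krt6a and Lhx2. The IFE basal-like class held 13467 cells in 4 clusters led by Antxr1, Aldh3a1, Sprr2a genes and cell cycle genes. The IFE differentiated-like class held 10689 cells in a Krt1-led and an Alox12-led cluster, and the IFE keratinized-like class held 3210 cells in a Serpina12-led and an Lce1-led cluster. Hemoglobin genes were also among the leading genes of the Krt1-led cluster. There Hbb-bs stood at 0 CPM in both control mice and at 111 and 0.457 CPM in CerS4epi-/- replicates 1 and 2. No cluster was named outer bulge-like in the clustering used here. A group of 75 cells in which all 11 outer bulge markers were detected was led by collagen genes, with the fibroblast marker list at 8071 to 42956 CPM, and stayed unnamed.

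The Krt6a- and Lhx2-led cluster stood apart from the rest of the infundibulum-like class. It held 93 and 52 control cells and 368 and 371 CerS4epi-/- cells, and these were unlike in their keratins. Krt10 stood at 10775 and 13109 CPM in its control cells and at 1266 and 885 CPM in its CerS4epi-/- cells, while Krt14 stood at 885 and 1191 CPM against 6553 and 8572 CPM. Without Harmony, the step that aligns the mice before clustering, 83 of its 145 control cells but 10 of its 739 CerS4epi-/- cells joined the inner bulge-like class. The cluster was named infundibulum-like with the Leiden seed used here, but outer bulge-like with seeds 5, 7 and 10 (740, 744 and 775 cells), and it stayed unnamed with seeds 2, 3, 4, 8 and 9. The member results past the test in the infundibulum-like class are therefore also given without this cluster, an alternative chosen after the data were seen, while the other pathway genes were tested in the whole class only.

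Each ligand had its own place in the epidermis. Levels are given in CPM, the summed counts of a gene per 1000000 counts of all genes in the same cells of 1 mouse, and the order of classes is a description without a test. Bmp2 was highest in inner bulge-like cells, at 1308 and 1057 CPM in the control mice and 1379 and 834 CPM in the CerS4epi-/- mice. The lowest of these values exceeded the 62.1 CPM of the highest IFE basal-like sum, and the 191 inner bulge-like cells, 0.559% of all cells, held 20.3% of all Bmp2 counts. Bmp4 was highest in IFE basal-like cells, at 69.8, 67.2, 48.1 and 43.7 CPM in control replicates 1 and 2 and CerS4epi-/- replicates 1 and 2, the order of mice used throughout. In IFE differentiated-like cells Bmp4 stood at 15.9 to 17.1 CPM, below every basal-like value. Bmp6 was highest in inner bulge-like cells, at 67.8, 78.8, 49.0 and 24.7 CPM, and was under 1 CPM in IFE basal-like and differentiated-like cells of every mouse.

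IFE basal-like cells held 51.1% of the Fst and 48.4% of the Sostdc1 counts, and also 68.8% of the Bmp4 and 45.3% of the Bmp2 counts. In the control mice Fst was highest in infundibulum-like cells, at 291 and 239 CPM against 59.6 and 33.0 CPM in IFE basal-like cells, and in the CerS4epi-/- mice the order was turned, at 91.9 and 60.6 CPM against 108 and 135 CPM. Within the basal class, the Aldh3a1-led cluster held most Fst, at 370, 236, 398 and 377 CPM, against 6.60, 5.96, 30.6 and 37.2 CPM in the Antxr1-led cluster. Sostdc1 followed the same cluster, with 709, 665, 660 and 531 CPM in Aldh3a1-led cells and 36.4, 30.1, 107 and 113 CPM in Antxr1-led cells. The 3157 Aldh3a1-led cells, 9.24% of all cells, held 38.4% of the Fst counts and 30.4% of the Sostdc1 counts. T cell-like cells gave the background, with Fst at 10.2 to 19.9 CPM on 3 to 5 counts per mouse and Sostdc1 at 4.95 to 46.5 CPM. The Fst levels of IFE differentiated-like and keratinized-like cells (1.42 to 5.598 CPM) were below this background. Grem1 had 73.3 counts in all 34150 cells, and 60 of them (81.8%) lay in the 75 unnamed collagen-led cells, where it stood at 326, 852, 212 and 276 CPM. These are 9 to 20 counts per mouse in cells that also carry fibroblast collagens, and no comparison of Grem1 between genotypes was made in a single class.

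**Figure D1:**
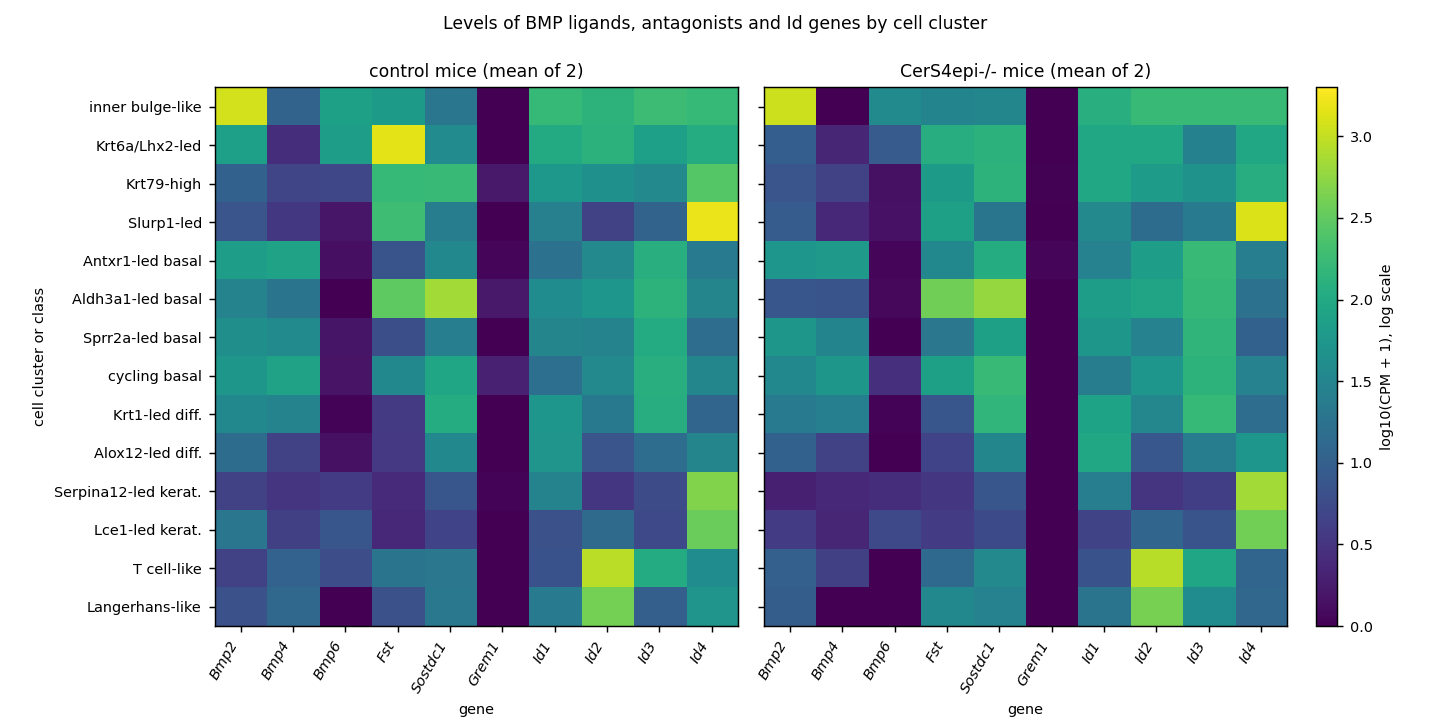
Mean level over the 2 mice of each genotype for the 10 members (columns) in 14 cell clusters or classes (rows), coloured by log10(CPM + 1). Bmp2 is brightest in inner bulge-like cells, Fst in the Krt6a/Lhx2-led cells of the control mice, Sostdc1 in Aldh3a1-led basal cells, Id2 in T cell-like cells and Id4 in Slurp1-led cells, while Grem1 is near 0 in all rows.

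The Id genes were spread more widely. Of the 5 keratinocyte classes, inner bulge-like cells had the highest Id1, at 128, 199, 120 and 111 CPM, and the highest Id3, at 207, 162, 114 and 222 CPM. For Id3 this order was not clear of the spread, since IFE basal-like cells stood at 117, 119, 151 and 167 CPM. Id2 was the Id gene of the immune cells, with 966, 836, 918 and 857 CPM in T cell-like and 468, 347, 384 and 447 CPM in Langerhans cell-like cells, and 36.6 to 67.6 CPM as genotype means in IFE basal-like cells. Id4 was a gene of late keratinocytes, with 438, 449, 624 and 591 CPM in IFE keratinized-like cells and 1673, 1559, 1311 and 1381 CPM in Slurp1-led infundibulum cells, against 21.7 to 25.2 CPM in IFE basal-like cells. By the mean of CPM per cell, 9 of the 10 members kept the same highest class, and by a gate on marker genes in place of clusters 5 of 10 did, with Fst and Sostdc1 then highest in the bulge gate and Id1 and Id4 in the infundibulum gate. The gate had no keratinized class, so Id4 could not keep its highest class there.

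Genotype differences of the members were tested on counts summed per mouse and class with the edgeR quasi-likelihood test, and p-values were adjusted by the Benjamini-Hochberg method over all genes tested in that class. In IFE basal-like cells 7 of the 8 members tested passed the threshold of 0.05, 5 of them higher and 2 lower in CerS4epi-/- cells, where 7.17% of all genes passed. In IFE differentiated-like cells 7 of 8 passed, 6 higher and 1 lower, against 10.2% of all genes. In infundibulum-like cells 5 of 9 passed, 2 higher and 3 lower, against 16.1% of all genes, and without the Krt6a- and Lhx2-led cells 4 of 8 passed against 7.49%. In IFE keratinized-like cells 2 of 9 passed, 1 in each direction, against 16.9% of all genes, a share near that background. In the inner bulge-like cells 0 of 7 passed against 1.58% of all genes. Grem1 was too low for the test in every class. With 2 mice per genotype an exact permutation test of a single gene could not give a p below 0.333, so each call rests on the spread shared across genes.

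**Figure D2:**
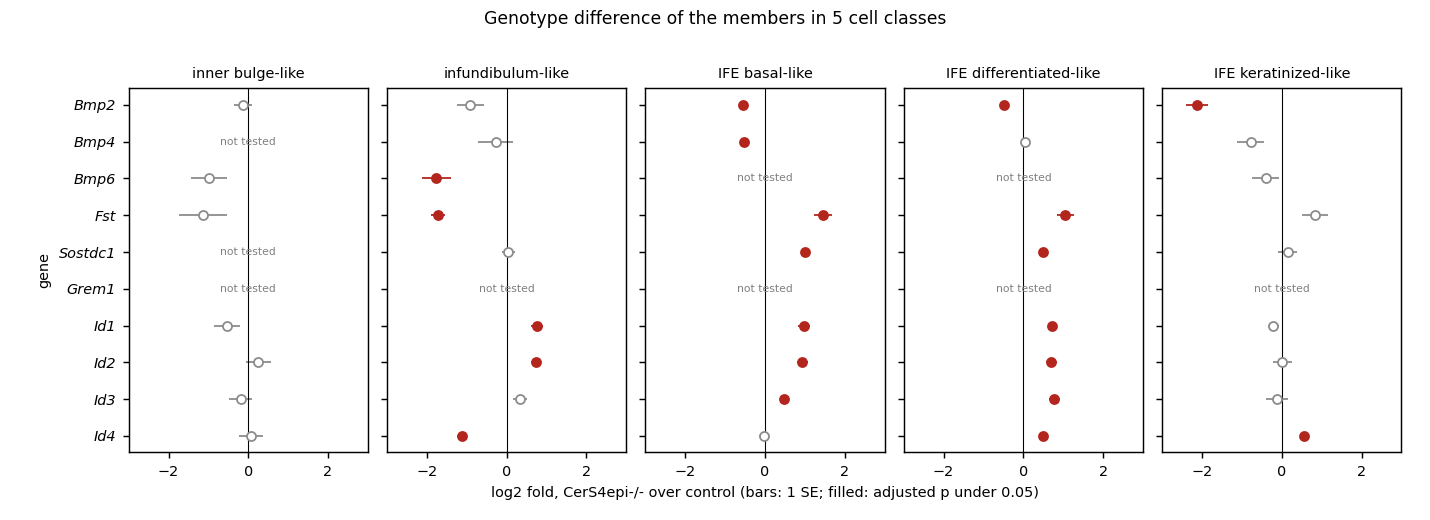
Log2 fold of each member, CerS4epi-/- over control, in 5 cell classes; points are estimates from 2 mice per genotype, bars are 1 standard error and filled points have an adjusted p under 0.05. Fst lies left of 0 in infundibulum-like cells (-1.73) and right of 0 in IFE basal-like (1.44) and differentiated-like cells (1.06), and the filled Id points lie right of 0 except for Id4 in infundibulum-like cells (-1.13).

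Bmp2 fell in the 3 IFE classes of CerS4epi-/- mice and Bmp4 in the basal class, while Bmp2 in the inner bulge-like cells did not pass the test (log2 fold -0.13, SE 0.23). Bmp2, the ligand most abundant in the inner bulge, stood in IFE basal-like cells at 62.1 and 56.6 CPM in the control and 41.4 and 36.4 CPM in the CerS4epi-/- mice. It fell by 0.55 on the log2 scale (SE 0.10, adjusted p = 0.0172). In IFE differentiated-like cells it went from 24.96 and 22.1 CPM to 17.0 and 17.1 CPM and fell by 0.48 (SE 0.10, adjusted p = 0.0209). The genotypes did not overlap in either class, an order to which an exact permutation test of 2 against 2 mice gives a p of 0.333. In IFE keratinized-like cells, where Bmp2 is scarce, it stood at 7.96 and 6.99 CPM in the control and 1.73 and 1.349 CPM in the CerS4epi-/- mice and fell by 2.12 (SE 0.27, adjusted p = 0.00156), at levels within the T cell-like range of 0 to 11.6 CPM. It passed in both keratinized clusters: in Serpina12-led cells (3.44 and 3.59 against 1.25 and 0.642 CPM, log2 fold -1.75), where 2 of 9 members passed against 13.5% of all genes, and in Lce1-led cells (19.4 and 18.0 against 2.82 and 3.002 CPM, log2 fold -2.50), where Bmp2 was the 1 member of 7 past the test against 4.44%. The basal-like call for Bmp2 was lost when control replicate 1 was left out and when cells were kept at no more than 10% mitochondrial counts (log2 fold -0.37). The call in differentiated-like cells was lost by DESeq2, without control replicate 1, at no more than 10% mitochondrial counts and without Harmony (smallest log2 fold -0.33).

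The fall of the ligands was not even over the basal clusters. In Aldh3a1-led basal cells Bmp2 stood at 25.8 and 31.8 CPM in the control and 7.55 and 5.59 CPM in the CerS4epi-/- mice (log2 fold -2.03, SE 0.30, adjusted p = 0.000586), and Bmp4 at 18.1 and 16.8 against 8.68 and 3.87 CPM (log2 fold -1.38, SE 0.38, adjusted p = 0.0378). In this cluster 3 of 8 members passed against 6.65% of all genes. In Antxr1-led basal cells, the largest basal cluster, neither ligand passed: Bmp2 stood at 75.4, 60.5, 58.9 and 48.8 CPM and Bmp4 at 81.4, 74.6, 59.5 and 61.8 CPM. The difference between the clusters was not tested. Barcodes with 10 to 100 counts, taken as a measure of free RNA, held Bmp2 at 42.4, 46.9, 41.4 and 26.6 CPM. They held Bmp4 at 34.6, 30.6, 15.7 and 26.6 CPM. The part of free RNA in the ligand results was not tested. In Sprr2a-led basal cells, which had 42 to 234 cells per mouse, 0 of 7 members passed by edgeR against 0.468% of all genes, with Fst, Sostdc1 and Id1 at an unadjusted p under 0.05. Over the whole basal-like class Bmp4, which is made by basal keratinocytes and by the dermis, fell by 0.52 (SE 0.09, adjusted p = 0.0135), and this call was lost without control replicate 1, without control replicate 2 and at no more than 10% mitochondrial counts (log2 fold -0.43). The Aldh3a1-led cluster, poor in both ligands, took 631 and 527 of the control and 1038 and 961 of the CerS4epi-/- basal-like cells, and its part in the class-wide fall was not tested.

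Bmp6, a ligand of the inner bulge and of late keratinocytes, had the fewest counts of the ligands. It fell by 1.77 in infundibulum-like cells (10.7 and 6.02 CPM against 1.99 and 2.82 CPM, SE 0.37, adjusted p = 0.00925), and 22.8% of all Bmp6 counts came from the Krt6a- and Lhx2-led cells. Without those cells Bmp6 was too low for the test, and the call was also lost without control replicate 1, without Harmony, at resolution 1.2 and with Leiden seed 2 (smallest log2 fold -0.59, adjusted p up to 0.455). In the Krt6a- and Lhx2-led cells alone Bmp6 stood at 78.8 and 62.7 CPM in the control and 6.08 and 9.59 CPM in the CerS4epi-/- mice, and Bmp2 at 117 and 25.1 against 11.7 and 5.55 CPM. Of 8 members tested in these cells 5 passed, against 9.72% of all genes, and the unlike cells of the genotypes described above were not separated from these folds. The Id3 call there was lost in 15 alternatives, the Bmp2 call without control replicate 1 and with seed 3 (smallest log2 fold -1.37), and the Sostdc1 call without control replicate 1 and at no more than 10% mitochondrial counts. Among the inner bulge-like cells themselves Bmp6 stood at 67.8, 78.8, 49.0 and 24.7 CPM, both CerS4epi-/- mice below both control mice, with a log2 fold of -0.99 (SE 0.46, adjusted p = 0.397) that did not pass.

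**Figure D3:**
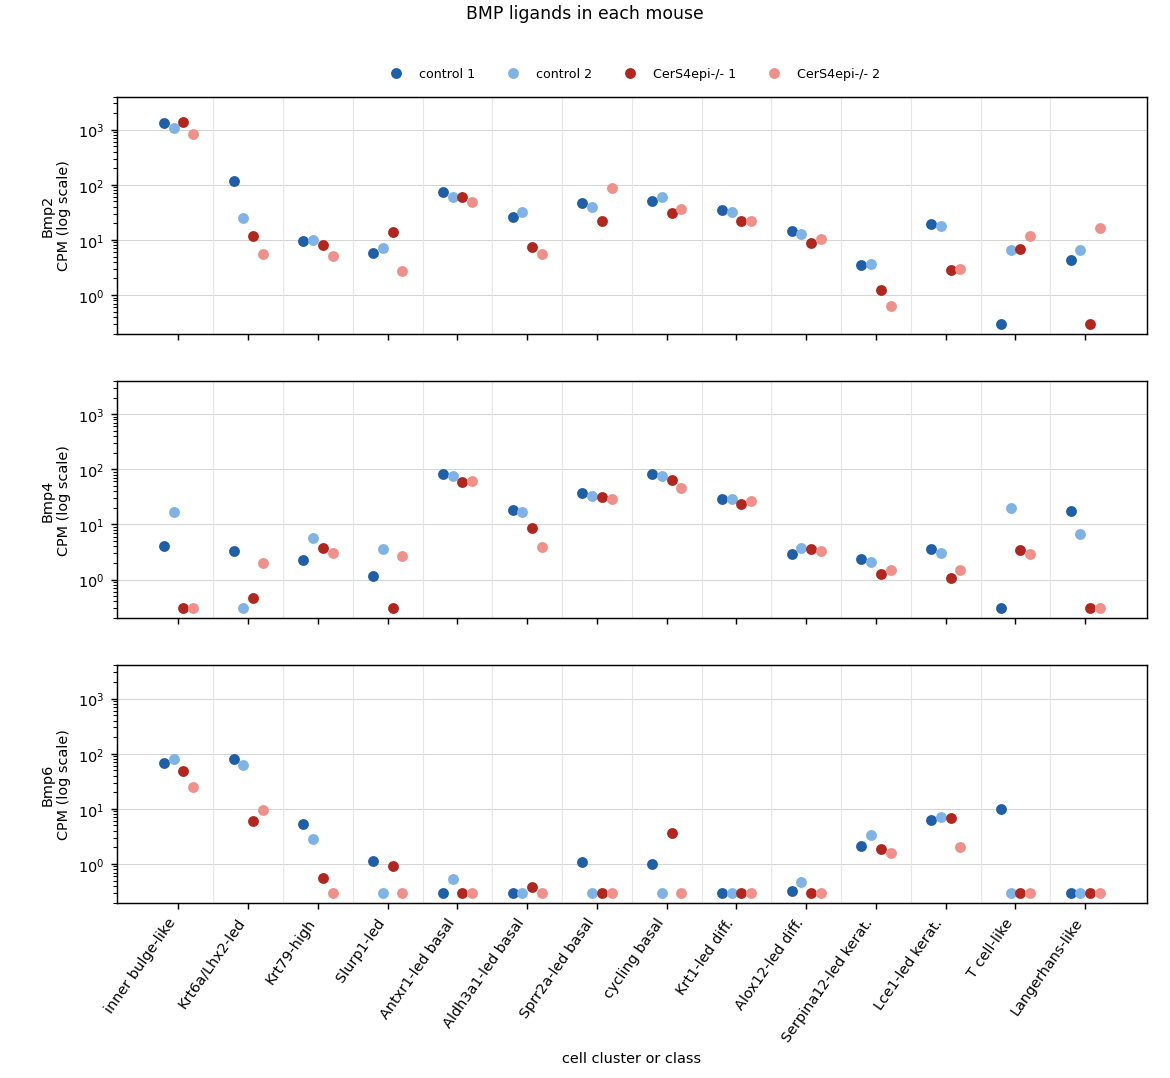
CPM of Bmp2, Bmp4 and Bmp6 (log axes, a value of 0 drawn at 0.3) in each of the 4 mice over 14 cell clusters or classes; blue points are control and red points CerS4epi-/- mice. Bmp2 points lie between 834 and 1379 in inner bulge-like cells in both colours and separate by colour in Aldh3a1-led basal cells, where the red points (7.55 and 5.59) lie under the blue ones (25.8 and 31.8).

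The antagonist Fst, which binds activins and some BMPs, moved in opposite directions in infundibulum-like and IFE basal-like cells. In infundibulum-like cells Fst stood at 291 and 239 CPM in the control and 91.9 and 60.6 CPM in the CerS4epi-/- mice, and it fell by 1.73 on the log2 scale (SE 0.18, adjusted p = 0.000204). IFE basal-like cells held it at 59.6 and 33.0 CPM in the control and 108 and 135 CPM in the CerS4epi-/- mice, and it rose by 1.44 (SE 0.23, adjusted p = 0.00937). Neither pair of genotypes overlapped, an order to which an exact permutation test of 2 against 2 mice gives a p of 0.333. Within the basal class Fst passed in Antxr1-led cells only, and the part of cluster shares in the class-wide rise was not tested. In IFE differentiated-like cells Fst rose by 1.06 (2.75 and 2.42 against 5.24 and 5.598 CPM, SE 0.20, adjusted p = 0.0127), at a level below that of T cell-like cells. This call was lost by DESeq2, at no more than 10% mitochondrial counts and without Harmony (smallest log2 fold 0.45).

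The test of the difference itself, the class by genotype term with the mouse as a block, gave -3.21 for Fst (SE 0.22, adjusted p = 4.2e-08) between infundibulum-like and IFE basal-like cells, and 3 of 9 members passed this test, all in the same direction, against 7.12% of all genes. The other members past it were Sostdc1 (-0.97, SE 0.19, adjusted p = 0.00321) and Id4 (-1.09, SE 0.14, adjusted p = 4.5e-05). Without the Krt6a- and Lhx2-led cells the differences were -2.81 for Fst (adjusted p = 8.2e-05), -1.11 for Sostdc1 (adjusted p = 0.0116) and -0.91 for Id4 (adjusted p = 0.00245), where 2.89% of all genes passed. Between Krt79-high and Antxr1-led cells they were -3.78 for Fst, -2.00 for Sostdc1 and -1.34 for Id4, with 3.25% of all genes past the threshold.

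Within the infundibulum, the fall of Fst was seen in each of the 3 clusters of the class and varied in size. In the Krt6a- and Lhx2-led cells Fst went from 1532 and 1391 CPM to 144 and 83.8 CPM (log2 fold -3.59, SE 0.24, adjusted p = 1.0e-05), but there the genotypes differ in their cells as described. In Krt79-high cells it went from 169 and 150 CPM to 73.0 and 48.8 CPM (log2 fold -1.32, SE 0.17, adjusted p = 0.00287). In Slurp1-led cells, the most differentiated of the infundibulum, it went from 178 and 193 CPM to 81.0 and 67.5 CPM (log2 fold -1.24, SE 0.17, adjusted p = 1.6e-05). Fst was the 1 member of 5 that passed in Slurp1-led cells, against 4.52% of all genes. In the whole class without the Krt6a- and Lhx2-led cells it fell by 1.347 (SE 0.16, adjusted p = 0.00108), a smaller fold than in the whole class.

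The Krt79-high cells were split further into 5 groups, again after the data were seen, in which 2.20%, 3.15%, 1.66%, 3.43% and 2.26% of all genes passed (groups led by Defb6 and Lbh, Dpysl3 and Krt79, Defb6 and Cd200, Klk10 and Ear2, and Krt79 and Krt17) beside 0, 1, 2, 2 and 2 members. The group led by Krt79 and Krt17, in which Krt10 overlapped between genotypes (6803, 10470, 9209 and 8681 CPM), had Fst at 245 and 223 CPM in the control and 108 and 65.2 CPM in the CerS4epi-/- mice (log2 fold -1.36, SE 0.19, adjusted p = 0.000491). The group led by Klk10 and Ear2 had Fst at 202 and 276 against 10.2 and 12.8 CPM (log2 fold -4.19, SE 0.27, adjusted p = 2.5e-08). In that group Krt10 also went from 4265 and 5231 CPM to 1142 and 1512 CPM, and the part of this shift in the Fst fold was not tested. The smallest group, led by Defb6 and Cd200, had Fst at 174 and 89.4 against 41.5 and 33.0 CPM (log2 fold -1.69, SE 0.35, adjusted p = 0.000201). Of its 195 cells 52 remained when the top 5% of Scrublet scores were left out, and what doublets add to its values was not tested. Fst did not pass in the other groups: it stood at 121, 146, 133 and 115 CPM in cells led by Defb6 and Lbh (log2 fold -0.04, SE 0.23) and at 111, 56.0, 70.7 and 35.2 CPM in the largest group, led by Dpysl3 and Krt79 (log2 fold -0.59, SE 0.28). The genotypes overlapped in both of these.

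Within the basal cells, Fst passed in 1 of the 4 clusters. Antxr1-led cells went from 6.60 and 5.96 CPM to 30.6 and 37.2 CPM (log2 fold 2.46, SE 0.17, adjusted p = 1.2e-05), and 5 of 8 members passed in this cluster against 4.19% of all genes. In Aldh3a1-led cells the values of 370, 236, 398 and 377 CPM gave a log2 fold of 0.41 (SE 0.15, adjusted p = 0.127) that did not pass. T cell-like cells held Fst at 14.9, 19.9, 10.2 and 14.5 CPM, while barcodes with 10 to 100 counts, taken as a measure of free RNA, held 58.1, 40.2, 84.2 and 85.3 CPM. Beside the Antxr1-led result, other leading genes of the Aldh3a1-led cluster summed to 76.1 and 72.9 CPM in control and 193 and 189 CPM in CerS4epi-/- Antxr1-led cells. The part of these genes and of free RNA in the Antxr1-led result was not tested.

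**Figure D4:**
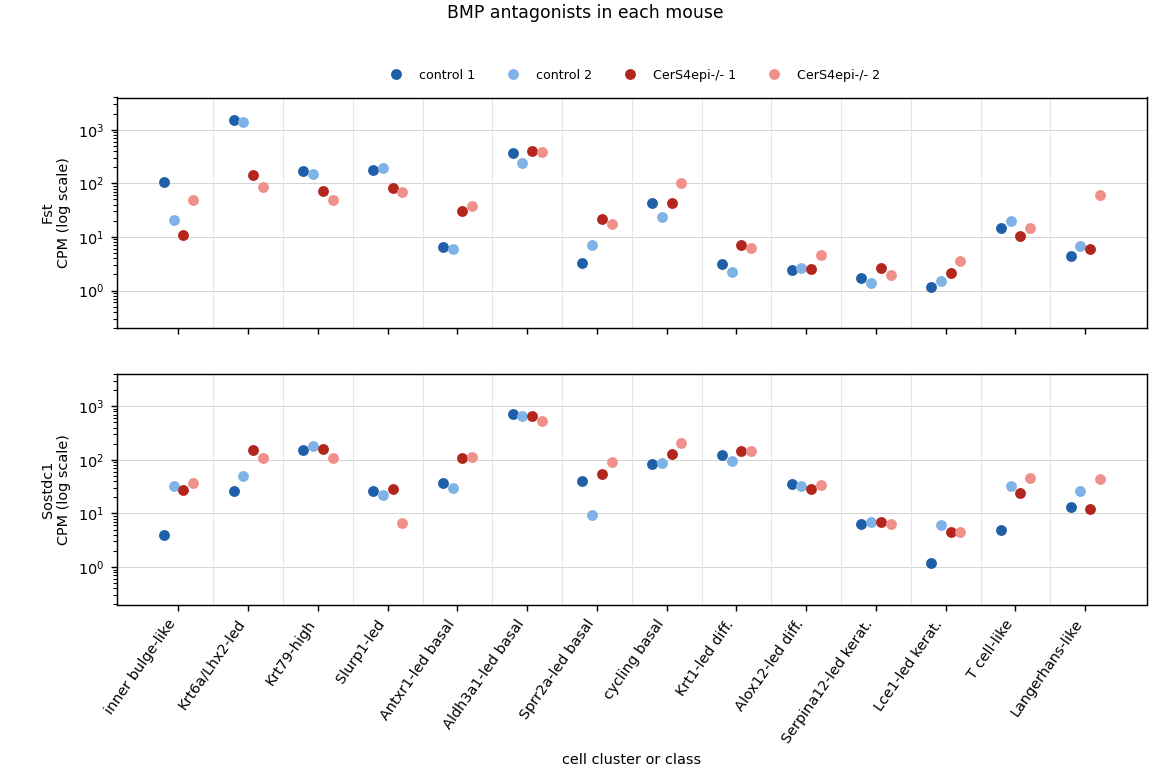
CPM of Fst and Sostdc1 (log axes, a value of 0 drawn at 0.3) in each of the 4 mice over 14 cell clusters or classes; blue points are control and red points CerS4epi-/- mice. For Fst the red points lie under the blue ones in the 3 infundibulum groups and over them in Antxr1-led basal cells, and Sostdc1 points sit together in Aldh3a1-led basal cells (531 to 709).

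Sostdc1, an antagonist that also binds Wnt coreceptors, rose in IFE basal-like and differentiated-like cells and did not pass in IFE keratinized-like cells (log2 fold 0.15) or in the whole infundibulum-like class. In the IFE basal-like class it stood at 131 and 106 CPM in the control and 221 and 235 CPM in the CerS4epi-/- mice, a rise of 1.00 on the log2 scale (SE 0.10, adjusted p = 0.00207). The Aldh3a1-led cluster, rich in Sostdc1 and Fst, took 631 of 3558 and 527 of 3613 control and 1038 of 3465 and 961 of 2831 CerS4epi-/- basal-like cells, neither gene passed within it, and the part of this shift in the class-wide rises of both was not tested. Antxr1-led cells (36.4 and 30.1 against 107 and 113 CPM, log2 fold 1.77, SE 0.11, adjusted p = 8.3e-06) and cycling basal cells (82.8 and 87.7 against 130 and 202 CPM, log2 fold 0.97, SE 0.17, adjusted p = 0.00643) passed, the latter as 1 of 8 members past the test against 1.68% of all genes. In Aldh3a1-led cells, where Sostdc1 was highest, both CerS4epi-/- mice lay under both control mice with a log2 fold of -0.14 (SE 0.10) that did not pass. In IFE differentiated-like cells Sostdc1 rose by 0.50 (79.7 and 62.9 against 100 and 102 CPM, SE 0.10, adjusted p = 0.0187), and this call was lost without control replicate 2 and at no more than 10% mitochondrial counts (smallest log2 fold 0.26). Infundibulum-like cells, at 107, 138, 142 and 97.8 CPM, overlapped between genotypes, whereas in their Krt6a- and Lhx2-led cells Sostdc1 rose from 26.8 and 50.1 CPM to 150 and 109 CPM (log2 fold 1.97, SE 0.35, adjusted p = 0.00546). Low-count barcodes held Sostdc1 at 73.8, 82.4, 158 and 141 CPM, and what free RNA adds to cells low in the gene was not tested. The basal-like calls of Fst (log2 fold 1.03, adjusted p = 0.0721) and Sostdc1 (log2 fold 0.61, adjusted p = 0.0934) were lost at no more than 10% mitochondrial counts. This limit kept 1984 of 3558 and 2113 of 3613 control basal-like cells. Of the CerS4epi-/- basal-like cells it kept 1212 of 3465 and 1116 of 2831.

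The shares of cells with at least 1 count, after each cell was thinned to 1200 counts, are given as a description. Fst was found in 18.4% and 16.5% of control and 8.49% and 5.71% of CerS4epi-/- infundibulum-like cells (27.6%, 24.3%, 19.4% and 12.1% before thinning). In IFE basal-like cells these shares were 6.27% and 4.35% against 13% and 13.1% (9.27%, 5.95%, 19.8% and 20.2% before thinning). Sostdc1 was found in 13.2% and 10.5% of control and 24.3% and 23.7% of CerS4epi-/- basal-like cells after thinning. T cell-like cells, with a median of 1549 to 1904 counts against 2660 to 3179 in basal-like cells, had thinned shares of 0.935% to 2.16% for both genes.

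Among the Id genes, Id1, Id2 and Id3 rose in the IFE of CerS4epi-/- mice. In IFE basal-like cells Id1, a direct target of BMP Smads, stood at 18.96 and 20.7 CPM in the control and 32.2 and 43.7 CPM in the CerS4epi-/- mice and rose by 0.98 on the log2 scale (SE 0.15, adjusted p = 0.00828). Id2, which also marks immune and progenitor cells, stood at 41.9 and 31.4 against 64.1 and 71.1 CPM and rose by 0.94 (SE 0.13, adjusted p = 0.0065). Id3, a target most often found beside Id1, stood at 117 and 119 against 151 and 167 CPM and rose by 0.48 (SE 0.08, adjusted p = 0.0114). The genotypes did not overlap for any of these 3 genes, an order to which an exact permutation test of 2 against 2 mice gives a p of 0.333 per gene. The edgeR p-values rest on a spread shared across genes, not on the spread of each gene between these 4 mice alone. The Id3 call was lost without control replicate 1 and without control replicate 2.

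The same 3 genes rose in IFE differentiated-like cells. Id1 went from 52.3 and 52.3 CPM to 80.8 and 92.4 CPM (log2 fold 0.71, SE 0.08, adjusted p = 0.00113), Id2 from 14.1 and 12.7 to 19.1 and 25.2 CPM (log2 fold 0.70, SE 0.14, adjusted p = 0.014) and Id3 from 69.6 and 54.7 to 92.8 and 122 CPM (log2 fold 0.77, SE 0.14, adjusted p = 0.00844). By cluster, Id1 passed in Antxr1-led, Aldh3a1-led, Krt1-led and Alox12-led cells, Id2 in Antxr1-led and Krt1-led cells and Id3 in Antxr1-led, Krt1-led and Alox12-led cells. In the Krt1-led cluster 6 of 8 members passed against 5.29% of all genes, and in the Alox12-led cluster 3 of 8 against 6.55%. In IFE keratinized-like cells none of these 3 genes passed, with Id1 at 22.9, 22.9, 16.5 and 20.5 CPM.

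Stress genes induced during dissociation moved beside the Id genes. The 8 listed genes, all detected, summed to 14040 and 13543 CPM in control and 15767 and 17692 CPM in CerS4epi-/- basal-like cells, and to 9269 and 7316 against 12650 and 13275 CPM in differentiated-like cells. Low-count barcodes held Id1 at 42.4, 30.6, 76.3 and 51.2 CPM, Id2 at 45.6, 40.7, 111 and 94.9 CPM and Id3 at 67.6, 74.7, 113 and 130 CPM. The part of either in the Id results was not tested. T cell-like cells, handled in the same suspension, had Id2 at 966, 836, 918 and 857 CPM and Id3 at 89.2, 126, 85.3 and 90.0 CPM, and neither passed, in a class where 0.0218% of all genes did. In Langerhans cell-like cells Id2 was the 1 member tested, and it did not pass, where 0.253% of all genes did.

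In infundibulum-like cells Id1 and Id2 also rose. Id1 went from 62.4 and 41.7 CPM to 86.2 and 85.8 CPM (log2 fold 0.77, SE 0.16, adjusted p = 0.00863) and Id2 from 42.2 and 39.7 CPM to 60.5 and 71.0 CPM (log2 fold 0.74, SE 0.13, adjusted p = 0.00371). Both passed without the Krt6a- and Lhx2-led cells, with log2 folds of 0.81 (adjusted p = 0.0369) and 0.74 (adjusted p = 0.0214). In the Krt79-high cells alone neither passed (Id1 adjusted p = 0.0712, Id2 adjusted p = 0.103), where 2 of 8 members did against 5.34% of all genes. Neither passed in the Krt6a- and Lhx2-led cells (log2 folds 0.01 and -0.30). In Slurp1-led cells Id1 did not pass (0.37) and Id2 was too low for the test. Of the Krt79-high groups, Id1 passed in the Klk10- and Ear2-led one (1.21) and Id2 in the Defb6- and Cd200-led one (1.93). Slurp1-led cells held Id1 at 29.7, 23.7, 27.3 and 43.2 CPM. They were a smaller share of CerS4epi-/- infundibulum-like cells, and what this adds to both rises was not tested. The stress genes summed to 12819, 10104, 10912 and 9930 CPM in infundibulum-like cells, with overlap between the genotypes.

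Id4, the Id gene of late keratinocytes, fell in the infundibulum and rose in the upper IFE. In infundibulum-like cells it stood at 608 and 547 CPM in the control and 273 and 231 CPM in the CerS4epi-/- mice and fell by 1.13 on the log2 scale (SE 0.12, adjusted p = 0.000204), and by 0.95 without the Krt6a- and Lhx2-led cells (SE 0.12, adjusted p = 0.00173). In IFE keratinized-like cells it stood at 438 and 449 against 624 and 591 CPM and rose by 0.57 (SE 0.07, adjusted p = 0.00155), and in IFE differentiated-like cells it rose by 0.49 (20.7 and 21.6 against 29.2 and 30.8 CPM, SE 0.09, adjusted p = 0.00975). In IFE basal-like cells, where Id4 is low, it stood at 23.7, 25.2, 24.0 and 21.7 CPM and did not pass. Low-count barcodes held Id4 at 70.7, 98.2, 101 and 111 CPM, above its differentiated-like and basal-like levels. The part of free RNA in the Id4 results was not tested. The promoter of Id4 is the one printed above with a GGCGCC element. The call in differentiated-like cells was lost without control replicate 1, without Harmony and with a marker gate in place of clusters (lowest log2 fold 0.17).

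The fall of Id4 in the infundibulum was in the Krt79-high cells, from 257 and 274 CPM to 130 and 97.5 CPM (log2 fold -1.15, SE 0.14, adjusted p = 0.00198). Slurp1-led cells, which held the highest Id4, had 1673, 1559, 1311 and 1381 CPM, both CerS4epi-/- mice below both control mice, with a log2 fold of -0.22 (SE 0.11, adjusted p = 0.332) that did not pass. Slurp1-led cells made up 230 of 1101 and 161 of 838 control infundibulum-like cells and 189 of 1968 and 142 of 1770 CerS4epi-/- ones, and the part of this shift in the class sum of Id4 was not tested. Within the Krt79- and Krt17-led group of the Krt79-high cells Id4 went from 600 and 567 CPM to 367 and 364 CPM (log2 fold -0.64, SE 0.11, adjusted p = 0.00418). In the largest group, led by Dpysl3 and Krt79, it went from 212 and 179 CPM to 111 and 89.7 CPM (log2 fold -0.91, SE 0.16, adjusted p = 0.00136). The groups led by Defb6 and Lbh (-0.89), Defb6 and Cd200 (-0.79) and Klk10 and Ear2 (-0.99) did not pass. Each of these folds was smaller than the fold of the class.

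**Figure D5:**
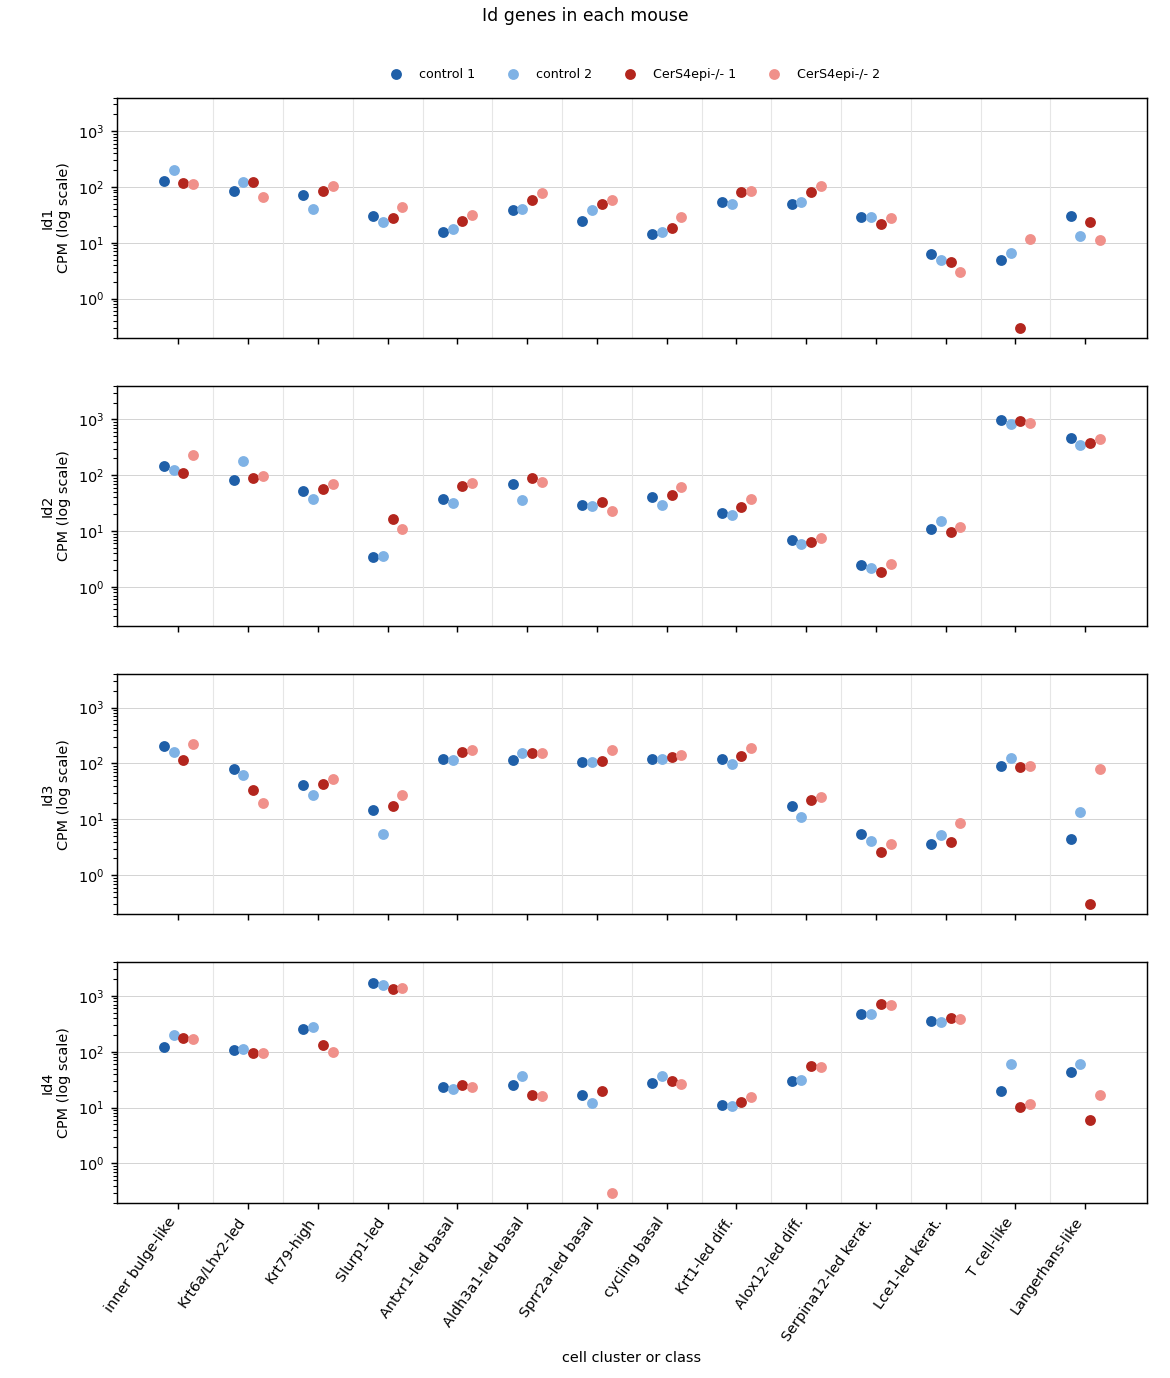
CPM of Id1, Id2, Id3 and Id4 (log axes, a value of 0 drawn at 0.3) in each of the 4 mice over 14 cell clusters or classes; blue points are control and red points CerS4epi-/- mice. Red points of Id1 lie over blue ones in the Antxr1-led, Aldh3a1-led, Krt1-led and Alox12-led clusters, and Id4 red points lie under blue ones in Krt79-high cells (130 and 97.5 against 257 and 274) and over them in Serpina12-led cells.

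In the inner bulge-like cells, with 33 to 65 cells per mouse, none of the 7 tested members passed. Besides Bmp2 and Bmp6, Fst stood at 104, 20.7, 10.9 and 49.4 CPM, which overlapped between genotypes, and Id1 at 128, 199, 120 and 111 CPM, both CerS4epi-/- values under both control values (log2 fold -0.53, SE 0.32, adjusted p = 0.579). By the edgeR quasi-likelihood test 1 member, Bmp6, had an unadjusted p under 0.05, and DESeq2 called 0 members. The difference from IFE basal-like cells was -2.61 for Fst (SE 0.58, adjusted p = 0.066) and -1.56 for Id1 (SE 0.35, adjusted p = 0.0712), and 0 of 9 members passed that edgeR test against 0.3% of all genes, with 4 at an unadjusted p under 0.05 and 0 called by DESeq2. These sums were shallow: 3 counts amount to 11.96 to 18.5 CPM there, and of genes changed 2-fold in simulated inner bulge-like sums 37 of 100 were recovered, so a change of that size was often not detectable.

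Over all kept cells, which need no class, 6 of 10 members passed against 14.3% of all genes. Bmp2 (log2 fold -0.66, adjusted p = 0.0225) and Bmp4 (log2 fold -0.49, adjusted p = 0.0155) were lower in CerS4epi-/- mice, and Sostdc1 (0.73, adjusted p = 0.00886), Id1 (0.67, adjusted p = 0.00524), Id2 (0.95, adjusted p = 0.0196) and Id3 (0.49, adjusted p = 0.0212) were higher. Fst, at 45.2, 24.7, 49.9 and 52.2 CPM, did not pass over all cells. In such a sum fewer cells of a type and less RNA per cell cannot be told apart.

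Of the 56 other genes of the pathway, 11 were higher and 5 lower in CerS4epi-/- mice among the 42 tested over all kept cells, with a median log2 fold of 0.09 beside -4.3e-05 over all 16034 genes tested. In IFE basal-like cells 7 of 38 tested were higher and 1 lower, in IFE differentiated-like cells 5 of 35 and 1, in infundibulum-like cells 8 of 36 and 2, in IFE keratinized-like cells 5 of 31 and 3, and in inner bulge-like cells 0 of 21 passed. Over all genes the share past the threshold was 14.3% in all kept cells, 7.17% in basal-like, 10.2% in differentiated-like, 16.1% in infundibulum-like, 16.9% in keratinized-like and 1.58% in inner bulge-like cells. Among the other ligands Bmp7 rose in IFE basal-like (44.8 and 48.4 against 68.9 and 90.4 CPM, log2 fold 0.82) and differentiated-like cells (14.6 and 15.7 against 34.4 and 40.8 CPM, log2 fold 1.29). The activin subunit genes rose as well: Inhbb in IFE basal-like cells (3.13 and 3.23 against 11.1 and 9.06 CPM, log2 fold 1.73) and Inhba in infundibulum-like cells (0.879 and 1.204 against 7.27 and 14.96 CPM, log2 fold 3.46). Activins are ligands that follistatin binds tightly. Bmp3 rose in IFE differentiated-like cells (log2 fold 0.64). Bmp1, a protease that frees ligands from antagonists, rose in infundibulum-like (log2 fold 1.30), IFE basal-like (0.89) and differentiated-like cells (0.90).

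Few receptor genes passed. None of the 7 did so in basal-like, differentiated-like or infundibulum-like cells, and Bmpr1a, the main BMP receptor of keratinocytes, stood at 122, 109, 117 and 122 CPM over all kept cells. In IFE keratinized-like cells Bmpr2 (log2 fold 0.39), Acvr2a (0.43) and Acvr1 (0.52) rose, and Acvr1 also rose over all kept cells (0.31). The coreceptor gene Rgmb fell in infundibulum-like (log2 fold -0.72) and keratinized-like cells (-0.38) and Rgma rose in basal-like cells (0.64). Of the Smad genes, Smad1 rose in infundibulum-like cells (0.37), the inhibitory Smad7 rose over all kept cells (6.52 and 5.26 against 8.63 and 10.1 CPM, log2 fold 0.66) and Smad4 stood at 97.6, 92.1, 96.4 and 108 CPM there. Among secreted binders and regulators, Nbl1 rose in infundibulum-like cells (0.68), Fstl3 fell (-0.69) and Skil rose (0.56) in keratinized-like cells, Bambi fell over all kept cells (-0.68) and Fstl1 rose in basal-like cells from under 1 CPM. Crim1, Ski and Smurf2 did not pass in any class.

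Of the other BMP targets, Gata3, a transcription factor of the keratinocyte and inner root sheath lineages, fell in the 4 larger keratinocyte classes and did not pass in inner bulge-like cells (adjusted p = 0.0759). It stood at 747 and 780 against 522 and 460 CPM in IFE basal-like cells (log2 fold -0.58, adjusted p = 0.00623) and at 261 and 352 against 174 and 139 CPM in infundibulum-like cells (log2 fold -0.89, adjusted p = 0.00276). In IFE differentiated-like cells its log2 fold was -0.31 and in keratinized-like cells -0.28. Dlx3 rose in keratinized-like cells (0.43), and Foxn1 (-0.47) and Msx2 (-0.42) fell over all kept cells, so listed targets moved both ways beside the Id genes. The E protein genes, whose products Id proteins bind, rose in infundibulum-like cells: Tcf4 by 0.90, Tcf3 by 0.71 and Tcf12 by 0.61 on the log2 scale. Tcf4 (0.51) and Tcf12 (0.33) also rose in basal-like cells.

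As a description, the genes whose log2(CPM + 1) was most like that of each member were sought over 56 points, 14 clusters or classes in 4 mice that share their libraries. Bmp2 was most like Rerg (Pearson r = 0.834), Bmp4 like Ppp2r2c (0.91), and Bmp6 like Serpinb11 (0.911). Fst was most like Gata6 (0.833), followed by Bmp7 (0.821) and Sox9 (0.812), and Sostdc1 like Aldh3a1 (0.827). Id1 was most like Tacc2 (0.87), Id2 like Septin11 (0.95) and Smad7 (0.942), Id3 like Arhgap35 (0.874) and Id4 like Lmo7 (0.927). Grem1 stayed under 10 CPM in each of these and was not compared.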

How the data were processed

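Cells were isolated from dorsal epidermis of 4 mice and captured by BD Rhapsody. The authors trimmed reads with fastp 0.23.2 and deposited expected counts per gene and barcode from STARsolo (STAR 2.7.10a, GRCm39), in which reads that match several genes are shared out, so that 4.55% to 4.81% of the entries were not whole. The submitters' notes also name Scanpy 1.9.1 and Seurat.

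Barcodes were kept from 1200 counts upwards where mitochondrial genes held no more than 20%. Counts were scaled with scran 1.30.0, 3000 variable genes without the members and the 56 pathway genes among them were reduced to 100 principal components, aligned across mice with a rewritten Harmony and clustered with 30 neighbours by Leiden (leidenalg 0.10.2, resolution 0.8), with follicle clusters split again at 0.5. Names needed at least 3 detected markers, or 5 for the infundibulum. Scrublet marked 1 cell, so the caller had not worked and doublets were taken as present.

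Class sums per mouse were rounded and tested with edgeR 4.0.16 (quasi-likelihood, TMM, filterByExpr, R 4.3.3) over all genes with Benjamini-Hochberg adjustment at 0.05, in classes with at least 20 cells per mouse. The class by genotype term was fitted with the mouse as a block. On simulated basal-like sums 87 of 100 genes changed 2-fold were recovered. The members and lists were chosen with earlier results of these data known, and all 10 members are reported. Pathway genes are named where they passed or were most abundant. Alternatives were DESeq2 1.42.0, other scalings, filters, clusterings and each mouse left out. Separate tests per cluster, the infundibulum without its Krt6a- and Lhx2-led cells and Leiden seeds 3 to 10 were chosen after the data were seen.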

Additional observations from a re-analysis of the deposited data

Results flagged for a closer look

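For 3 members the genotype effect differed between infundibulum-like and IFE basal-like cells by the test of the difference itself, the class by genotype term of edgeR with the mouse as a block. The difference of log2 folds was -3.21 for Fst, -1.09 for Id4 and -0.97 for Sostdc1. Over all alternatives tried, the difference lay between -3.70 and -2.20 for Fst, between -1.22 and -0.84 for Id4 and between -1.30 and -0.66 for Sostdc1, and each passed the threshold in all of them.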

How the results depend on the processing

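Of the member results past the threshold, 79 of 83 alternative values stayed past it in infundibulum-like cells, 103 of 112 in IFE basal-like, 100 of 112 in IFE differentiated-like and 29 of 29 in IFE keratinized-like cells, 68 of 72 over all kept cells, 48 of 48 for the class difference and 90 of 109 in the Krt6a- and Lhx2-led cells, and 0 reversed. The number of members called in basal-like cells was 3 at no more than 10% mitochondrial counts, and 4 to 7 with a mouse left out (4 without control replicate 1). In differentiated-like cells it was 4 at no more than 10% mitochondrial counts and 4 without Harmony, in keratinized-like cells 1 by DESeq2, which gave no adjusted p for Bmp2, and over all kept cells 3 to 7 with a mouse left out (3 without CerS4epi-/- replicate 2). In inner bulge-like cells it was 1 without Harmony. By the bulge marker gate it was 1, in other cells than the inner bulge-like class. That gate took cells with Lhx2, Krt75, Postn or Cd34 and without Krt10 or Krt79. It held 126 and 60 control and 396 and 254 CerS4epi-/- cells. For the difference between bulge-like and basal-like cells it was 1 with DESeq2 size factors, 2 without filterByExpr, 1 at 2000 counts or more per barcode, 2 without the top 5% of Scrublet scores, 1 with equal cell numbers, 3 without Harmony, 2 at resolution 1.2, 2 with Leiden seed 2, 2 by the marker gate and 0 to 1 with a mouse left out. The highest class was the same for 5 members by the marker gate, which had no keratinized class and so could not keep that of Id4. The cause of the other changes was not tested. The counts of members called in these alternatives are given without the share of all genes past the threshold. They are therefore not read as results about the members. The shares of cells exceeded the T cell-like share in all 4 mice for 23 pairs of member and class after thinning and 28 before.

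Log2 folds that changed sign were all of members that did not pass. In bulge-like cells these were Bmp2 with equal cell numbers (0.032) and without Harmony (0.43) and Id3 without Harmony (0.36). In infundibulum-like cells they were Sostdc1 at no more than 10% mitochondrial counts (-0.42), at resolution 1.2 (-0.18), with seed 2 (-0.16) and without the Krt6a- and Lhx2-led cells (-0.10), and Bmp4 with seed 2 (0.020). In basal-like cells Id4 gave 0.002063 at 2000 counts or more, 0.012 at no more than 10% mitochondrial counts, 0.010 at resolution 1.2 and 0.18 by the marker gate. In differentiated-like cells Bmp4 gave -0.022 at no more than 10% mitochondrial counts, -0.045 with equal cell numbers, -0.052 at resolution 1.2 and -0.30 by the marker gate. In keratinized-like cells Id2 gave -0.0003809 without filterByExpr and -0.12 without the top Scrublet scores, Sostdc1 -0.15 with equal cell numbers and Id1 0.021 without Harmony. Over all kept cells Grem1 gave 0.20 at 2000 counts or more. With a mouse left out the folds ranged in bulge-like cells from -0.51 to 0.15 for Bmp2, -0.39 to 0.74 for Id2, -0.76 to 0.26 for Id3 and -0.28 to 0.50 for Id4, in infundibulum-like cells from -0.82 to 0.37 for Bmp4 and -0.25 to 0.28 for Sostdc1, in basal-like cells from -0.12 to 0.028 for Id4, in keratinized-like cells from -0.052 to 0.41 for Sostdc1, -0.11 to 0.17 for Id2 and -0.46 to 0.22 for Id3, and over all kept cells from -0.85 to 0.12 for Grem1.

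With the replicate number as a block the calls were 0 in bulge-like, 6 in infundibulum-like, 7 in basal-like, 7 in differentiated-like and 2 in keratinized-like cells and 6 over all kept cells. The share of all genes past the threshold with this block is not given here. The mice share only a number, since deviations of same-numbered mice correlated between -0.04 and 0.09.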
